A study of Mus musculus with 24 samples.

Results

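The genes described here are 47 interferon-stimulated genes of the mouse, followed in 4 brain areas of mice under chronic mild stress (CMS) and of control mice. Members were found by gene symbol in the annotation of the array, and a member's value is the mean of the probe sets that carry its symbol alone. Of the 47 genes, 43 had such a probe set, among 18193 genes on the array that did. These 43 members were read by 67 probe sets, with 1 probe set for 26 members, 2 for 10 and 3 for 7. Isg15, Gbp4 and Psme2 only shared probe sets with another gene, Ifi44 was matched to none, and no value is given for these genes.

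The study asked which transcripts differ in the brain of stressed mice, and compared CMS with control separately in hippocampus, amygdala, prefrontal cortex and cerebral cortex. All mice were male, wild-type C57BL/6 animals labelled with an age of 6 to 8 weeks, which the study's methods give as the age at purchase, before a rest in the cage and the weeks of stress. Over 4 weeks the CMS mice met mild stressors they could not predict, 6 days in each week and in an order shared by all of them, and control mice did not. Each of the 8 groups held 3 whole-genome expression arrays, giving 12 CMS and 12 control arrays. The study's descriptions differ on whether an array held RNA of 1 mouse or of pooled mice, so the p-values measure the spread between these arrays, which may be partly technical. Arrays of different areas may come from the same mice.

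Interferons are signalling proteins released by cells that sense a virus or other danger. They bind receptors on the same or neighbouring cells, JAK kinases then phosphorylate STAT proteins, and complexes of STAT and IRF proteins enter the nucleus and switch on the interferon-stimulated genes. The products sense foreign RNA, block entry or replication of viruses, present antigen and attract lymphocytes. In brain, microglia, endothelial cells and astrocytes are known to express many of them, and interferon is known to act on the vessels at the border between blood and brain.

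Values are log2 intensities that the authors had centred, so that each probe set's middle value over the 24 arrays is 0. A value of 0 therefore marks the middle of a gene's own arrays and not absence, and levels cannot be set between genes. The median SD of a gene within a group was between 0.033 and 0.066, array medians lay between -0.034 and 0.036, and no pair of arrays was identical. Markers of hippocampus averaged 4.15 in CMS and 4.29 in control hippocampus, and at most 0.52 in any other group, and cortex markers were highest in both cerebral cortex groups. The amygdala was less distinct: its markers averaged 0.61 in CMS and 1.03 in control amygdala, and the CMS arrays (0.57 to 0.66) overlapped those of control prefrontal cortex (0.43 to 0.60). In the amygdala the hippocampal markers lay between -0.38 and -0.20 in CMS arrays and between 0.50 and 0.56 in control arrays. In the hippocampus the median gene lay 0.048 lower in CMS than in control, against differences of 0.022 in the amygdala, -0.031 in cerebral cortex and 0.019 in prefrontal cortex. The 14 hybridization control probe sets, which read no mouse RNA, had array means between 0.84 and 1.00 in CMS amygdala arrays and between 0.0090 and 0.018 in control amygdala arrays, in the hippocampus between -1.59 and -1.54 in CMS arrays and between -1.19 and -1.10 in control arrays, and in the prefrontal cortex between 0.13 and 0.19 in CMS arrays and between -0.24 and -0.11 in control arrays. In these 3 areas treatment and array handling cannot be told apart. Control probe sets overlapped in the cerebral cortex, at -0.045 to 0.041 in CMS arrays and 0.027 to 0.26 in control arrays.

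The factors that interferon activates are known to bind a pair of short DNA words, and these were searched in the 250 bases before the start of each gene to show what the members share that the choice by symbol did not use. Promoter sequences came from a set of RefSeq promoters (GRCm38.p6), and the set used here held 37 of the 47 members. This set held none for Mx1, Mx2, Oas2, Usp18, Dhx58, Gbp4, Iigp1, Parp14, Parp9 and Rtp4. The core of the interferon-stimulated response element, 2 copies of GAAA with any 2 bases between them or the reverse complement with TTTC, was present upstream of 15 of the 37 members (40.5%), against 3.46% of the 27025 genes in the set. The gamma-activated site, TTCNNNGAA, which reads the same on both strands, was present upstream of 7 members (18.9%), against 8.13% of genes. Both words were present upstream of 3 members, and 1 pair of these sites overlapped. Of the 13 members with a promoter that were called higher in CMS in at least 1 area, 6 held the response element, against 8 of the 21 measured members called higher in none, and for the gamma-activated site these counts were 0 of 13 and 7 of 21. The 60 bases around the site nearest to the start are shown for those 6 and for Oas3, a member that hardly varied, with the sites in capitals.
Ifit1: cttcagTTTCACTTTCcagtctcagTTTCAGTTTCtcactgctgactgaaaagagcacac
Ifit3: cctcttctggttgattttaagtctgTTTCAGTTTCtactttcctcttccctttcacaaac
Rsad2: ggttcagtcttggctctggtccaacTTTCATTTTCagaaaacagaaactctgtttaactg
Gbp3: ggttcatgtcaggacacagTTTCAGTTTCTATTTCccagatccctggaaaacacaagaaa
Ifitm2: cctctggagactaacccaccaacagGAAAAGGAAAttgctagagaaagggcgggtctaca
Trim30a: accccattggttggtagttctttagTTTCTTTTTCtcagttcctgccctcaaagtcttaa
Oas3: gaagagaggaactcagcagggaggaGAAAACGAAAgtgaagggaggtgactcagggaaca
These windows lie at chr19:34640779-34640838 (plus strand) for Ifit1, chr19:34583382-34583441 (plus strand) for Ifit3, chr12:26456538-26456597 (minus strand) for Rsad2, chr3:142559980-142560039 (plus strand) for Gbp3, chr7:140955973-140956032 (minus strand) for Ifitm2, chr7:104465195-104465254 (minus strand) for Trim30a and chr5:120777700-120777759 (minus strand) for Oas3. Ifit1 and Gbp3 each held 2 sites within the window, apart in Ifit1 and overlapping in Gbp3. A match describes these letters only, and a promoter without one says nothing about the factor.

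Across the areas, 14 members were called higher in CMS in at least 1 area (limma, adjusted p under 0.05 over all genes), and only Ifitm3 exceeded 2-fold, in the amygdala (1 member or 2.33%, against 0.143% of all genes). Ifitm3 was called higher in 4 areas, Ifit3 in 3, 6 members in 2 and 6 members in 1, and 23 members were called in neither direction in any area. The share of all genes that met these conditions over the 4 areas was not computed. These pooled counts therefore have no background beside them. In the amygdala 5 of 43 members were higher (11.6%, against 10.5% of all genes) and none lower (against 8.84% of all genes), so the higher share was near that of genes in general. Both directions together took in 19.4% of all genes in the amygdala. Leaving out CMS amygdala replicate 1 gave 8 members and leaving out control amygdala replicate 3 gave 2. The share of all genes called without those arrays is not given here.

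In the cerebral cortex 8 members were higher (18.6%, against 5.95%) and none lower (against 3.99%). In the prefrontal cortex 6 members were higher (14.0%, against 4.45%) and none lower (against 3.92%). At an unadjusted p under 0.05 limma gave 0 lower members in amygdala and cerebral cortex and 1, Adar, in the prefrontal cortex, and the methods' t-test called 0 lower in these 3 areas. In the hippocampus 6 members were higher (14.0%, against 4.66%) and 8 lower (18.6%, against 24.9%). Both directions together gave 14 members in the hippocampus (32.6%, against 29.6%), whereas 9.94% of all genes were called in cerebral cortex and 8.37% in prefrontal cortex. The median difference of the 43 members was 0.11 (amygdala), -0.027 (hippocampus), 0.10 (cerebral cortex) and 0.089 (prefrontal cortex), above the median gene of each area. These counts moved with single arrays, and the share of all genes called in those runs is not given here. In the cerebral cortex 3 members were called without CMS replicate 1, 4 without CMS replicate 2, 4 without CMS replicate 3 and 5 without control replicate 2. In the prefrontal cortex 1 was called without control replicate 1, 1 without control replicate 2, 2 without control replicate 3 and 3 without CMS replicate 2. In the hippocampus the count in either direction was 14, and it was 11 without control replicate 3 and between 2 and 4 when any other array was left out. In bulk tissue, fewer cells of a type and less RNA per cell cannot be told apart.

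Short of the test, more members than genes in general had a difference above 0. These were 36 members in the amygdala (83.7%, against 63.5% of all genes), 20 in the hippocampus (46.5%, against 27.2%), 31 in the cerebral cortex (72.1%, against 34.8%) and 37 in the prefrontal cortex (86.0%, against 62.9%). All 3 CMS arrays exceeded all 3 control arrays for 16 members in the cerebral cortex (37.2%, against 14.3%) and 6 in the hippocampus (14.0%, against 8.16%). In amygdala and prefrontal cortex this share was closer to the background, with 20 members (46.5%, against 39.7%) and 17 members (39.5%, against 35.2%). The reverse order, all CMS arrays below all control arrays, was found for 12 members in the hippocampus (27.9%, against 48.2%), 6 in the cerebral cortex (14.0%, against 37.8%), 1 in the prefrontal cortex (2.33%, against 12.8%) and none in the amygdala (against 15.5%).

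**Figure D1:**
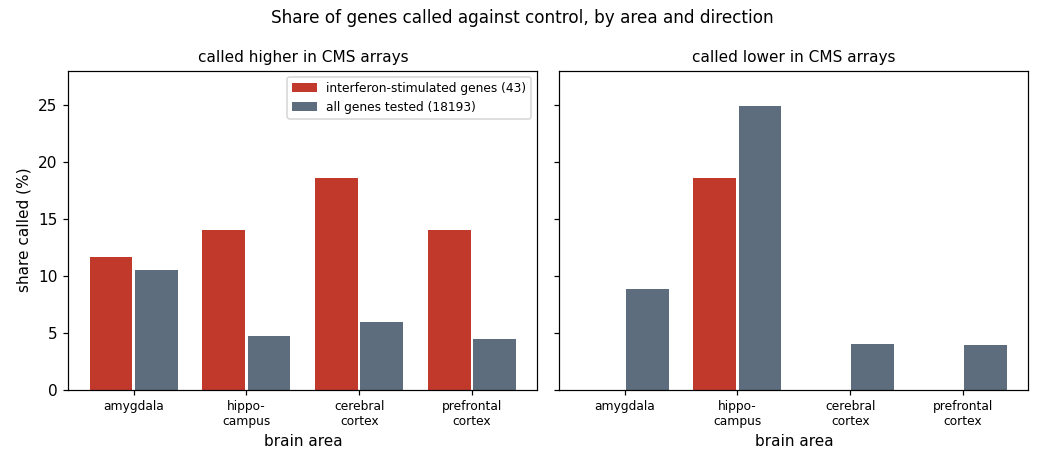
Share of genes called higher (left) and lower (right) in CMS arrays, in percent, for the 43 interferon-stimulated genes and for all 18193 genes tested, by brain area (limma, adjusted p under 0.05). Bars for the members called higher stand at 11.6%, 14.0%, 18.6% and 14.0%, beside 10.5%, 4.66%, 5.95% and 4.45% of all genes.

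**Figure D2:**
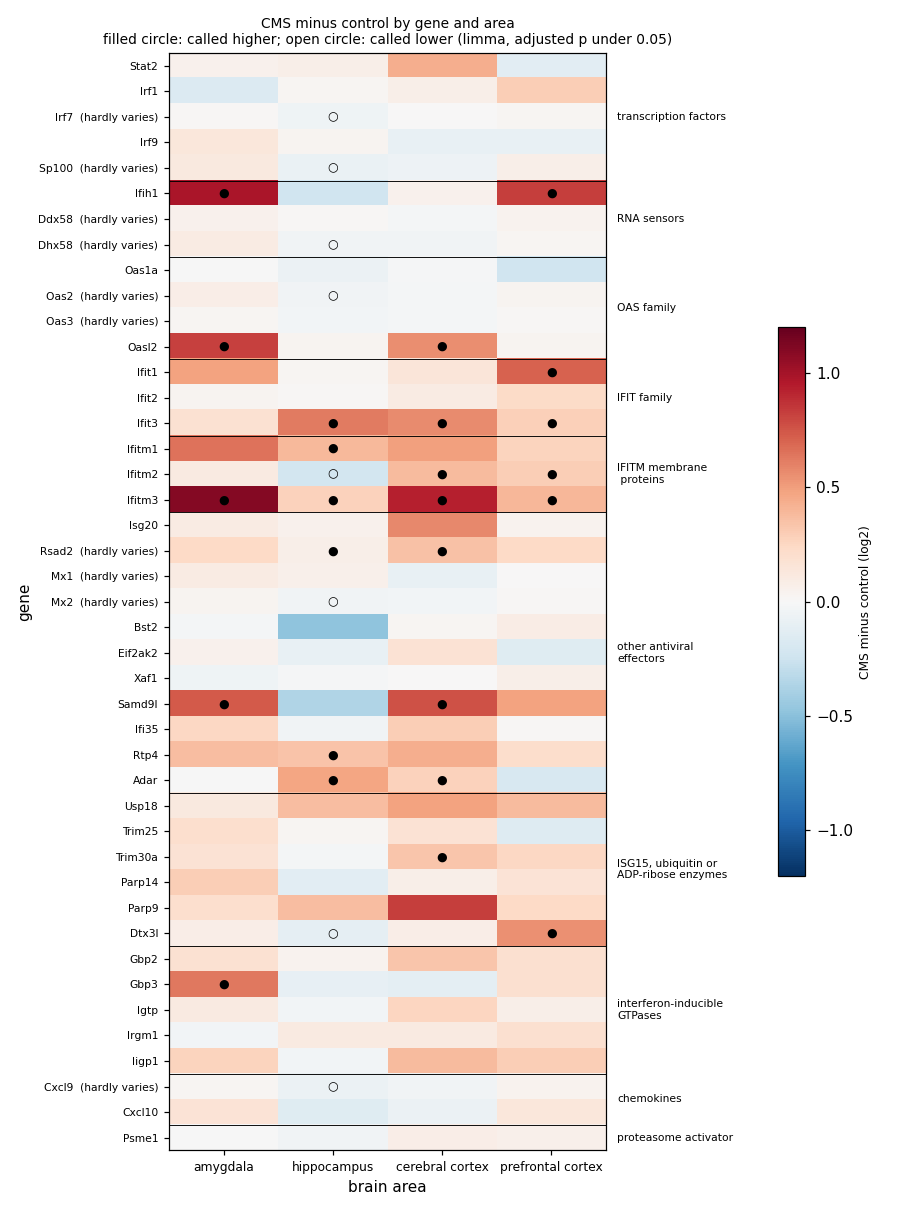
Difference between CMS and control means (log2, colour) of each of the 43 members in each area, grouped by role, with filled circles for genes called higher and open circles for genes called lower. Ifitm3 alone carries a filled circle in all 4 areas, and every open circle lies in the hippocampus.

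Markers of other cell types were read in the same arrays, and their counts stand beside the share of all genes called higher (10.5% in amygdala, 4.66% in hippocampus, 5.95% in cerebral cortex, 4.45% in prefrontal cortex) or lower (8.84%, 24.9%, 3.99% and 3.92% in the same order). Of 7 neutrophil markers, S100a8 and S100a9 were called higher in amygdala and cerebral cortex and 6 in the prefrontal cortex, where the list averaged 4.41 to 4.66 in CMS arrays and 0.92 to 1.04 in control arrays. In the amygdala 5 of 9 endothelial markers were called higher. The list means were 0.14 to 0.25 in CMS arrays and -0.28 to -0.14 in control arrays. Endothelial markers gave 2 higher and 1 lower in the cerebral cortex and 3 higher in the prefrontal cortex. Of 9 meningeal fibroblast markers, 4 were called higher and 1 lower in the amygdala. Their means there were 0.50 to 0.63 in CMS arrays and 0.18 to 0.26 in control arrays. Cerebral cortex and prefrontal cortex each likewise gave 4 meningeal fibroblast markers higher and 1 lower. In the cerebral cortex 5 of 10 microglial markers were called higher, with 0.18 to 0.20 in CMS arrays and -0.31 to -0.10 in control arrays, and 2 of 10 in the prefrontal cortex. Choroid plexus markers were called lower for 9 of 9 in the cerebral cortex, with -1.42 to -1.40 in CMS arrays and 1.63 to 1.69 in control arrays. Of these 9, 4 were also lower in the prefrontal cortex, with -0.90 to -0.82 in CMS arrays and 0.21 to 0.35 in control arrays, 1 was higher and 1 lower in the amygdala, with -0.99 to -0.92 in CMS arrays and -0.58 to -0.53 in control arrays, and 2 were higher in the hippocampus. Neuronal markers gave 4 higher and 1 lower of 7 in the amygdala, 3 higher and 1 lower in the hippocampus, 3 higher in the cerebral cortex and 1 higher in the prefrontal cortex. The neuronal list averaged -0.081 to -0.047 in CMS amygdala arrays and -0.17 to -0.15 in control amygdala arrays, and -0.025 to -0.0050 in CMS cerebral cortex arrays and -0.20 to -0.15 in control cerebral cortex arrays. Oligodendrocyte markers were lower for 5 of 6 in the amygdala and 4 of 6 in the prefrontal cortex and higher for 4 of 6 in the cerebral cortex, and astrocyte markers were lower for 4 of 8 in the amygdala and higher for 4 of 8 in the cerebral cortex. In the hippocampus 1 of 10 microglial, 3 of 9 endothelial and 1 of 7 neutrophil markers were called higher. Called lower there were 1 endothelial, 1 neutrophil, 4 of 9 meningeal fibroblast and 4 of 7 lymphocyte markers. No lymphocyte marker was called higher in any area. Their part in the differences of the interferon-stimulated genes was not tested.

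Among membrane proteins, Ifitm3 was the member with the largest difference in the amygdala and in the cerebral cortex. The IFITM proteins sit in the cell membrane and endosomes and hinder viruses from fusing with the cell. In the amygdala, Ifitm3 had centred log2 values of 0.12, 0.26 and 0.43 in CMS arrays, against -0.80, -0.78 and -0.92 in control arrays. The groups lay far apart, with a difference of 1.10 ± 0.088 (SE, n = 3 each; limma, adjusted p = 0.00338). In the cerebral cortex the values were -0.025, -0.087 and -0.075 in CMS arrays, against -0.93, -0.94 and -1.10 in control arrays. Here too every CMS array exceeded every control array, with a difference of 0.93 ± 0.053 (adjusted p = 0.0015, limma). In the prefrontal cortex the gene read 0.74, 0.72 and 0.67 in CMS arrays, against 0.23, 0.32 and 0.39 in control arrays, a difference of 0.40 ± 0.044 (limma, adjusted p = 0.0114). In the hippocampus it read 0.025, 0.070 and 0.030 in CMS arrays, against -0.26, -0.19 and -0.27 in control arrays, a difference of 0.28 ± 0.027 (limma, adjusted p = 0.00815). The groups did not overlap in any area, and in all 4 areas the call held whichever array was left out. The size of the difference was not the same in the areas (largest difference 0.82, limma F test, adjusted p = 1.47e-06).

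Ifitm2 and Ifitm1 behaved differently from Ifitm3. Ifitm2 had values of 0.35, 0.48 and 0.43 in CMS cerebral cortex, against 0.16, 0.033 and -0.065 in control cerebral cortex (difference 0.38 ± 0.066, limma, adjusted p = 0.0271). It was also higher in the prefrontal cortex, at 0.51, 0.66 and 0.64 in CMS arrays, against 0.24, 0.31 and 0.39 in control arrays (0.30 ± 0.057, limma, adjusted p = 0.0403). In the hippocampus it was lower, at -0.49, -0.53 and -0.49 in CMS arrays, against -0.23, -0.41 and -0.22 in control arrays (-0.22 ± 0.057, limma, adjusted p = 0.0441). CMS and control arrays of Ifitm2 thus lay apart in 3 areas with opposite signs, and overlapped in the amygdala. These 3 calls were less firm than those of Ifitm3. The hippocampal call remained only without control replicate 2, the prefrontal call was lost whichever of the 6 arrays was left out, and the cortical call remained only without control replicate 1 or 3 (adjusted p up to 0.123, 0.116 and 0.0945, limma). Ifitm1 read -0.043, -0.079 and 0.16 in CMS hippocampus, against -0.41, -0.37 and -0.34 in control hippocampus (0.39 ± 0.070, limma, adjusted p = 0.0237). In the amygdala its values were 1.27, 0.56 and 0.53 in CMS arrays, against 0.26, -0.014 and 0.17 in control arrays, and the difference of 0.65 ± 0.23 did not pass (adjusted p = 0.112, limma). One CMS array stood above the rest there. The hippocampal call was lost without CMS replicate 1 or control replicate 1 or 2 (limma, adjusted p up to 0.0792).

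Members of the IFIT family bind viral RNA and block its translation, and of these Ifit3 differed in most areas. Ifit3 had values of -0.65, -0.66 and -0.82 in CMS hippocampus, against -1.13, -1.64 and -1.21 in control hippocampus (0.62 ± 0.15, limma, adjusted p = 0.0385). The cerebral cortex gave 0.20, 0.18 and 0.33 in CMS arrays, against -0.34, -0.12 and -0.52 in control arrays (0.56 ± 0.11, limma, adjusted p = 0.0352). The prefrontal cortex gave 0.36, 0.18 and 0.30 in CMS arrays, against -0.015, -0.0026 and 0.0095 in control arrays (0.28 ± 0.049, limma, adjusted p = 0.0319). In these 3 areas no CMS array fell to the level of a control array, and in the amygdala they overlapped. Each of the 3 calls was lost without 5 of the 6 arrays of its area, and remained only without control replicate 2 in hippocampus and cerebral cortex and without CMS replicate 2 in prefrontal cortex (adjusted p up to 0.11, 0.113 and 0.0966, limma). None of the 3 calls passed under the methods' t-test or with arrays centred on their median.

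Ifit1 was called in the prefrontal cortex alone, with 0.84, 0.84 and 0.39 in CMS arrays, against -0.024, -0.0018 and -0.017 in control arrays (0.70 ± 0.13, limma, adjusted p = 0.0365). The control arrays were nearly equal and the CMS arrays spread. Without any array other than CMS replicate 3 the call was lost (limma, adjusted p up to 0.119). In the amygdala Ifit1 read 1.39, 0.43 and 0.38 in CMS arrays, against 0.017, -0.021 and 0.77 in control arrays, and the groups overlapped. Ifit2 was called in no area, and its largest difference was 0.23 ± 0.057 in the prefrontal cortex (limma, adjusted p = 0.0763).

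Of the 3 RNA sensors, Ifih1 was called higher in amygdala and prefrontal cortex. Ifih1 encodes MDA5, which detects long double-stranded RNA in the cytoplasm and starts interferon production. In the amygdala its values were 0.57, 0.21 and 0.38 in CMS arrays, against -0.82, -0.39 and -0.56 in control arrays (0.98 ± 0.15, limma, adjusted p = 0.0142). In the prefrontal cortex they were 0.29, 0.52 and 0.60 in CMS arrays, against -0.45, -0.43 and -0.21 in control arrays (0.83 ± 0.11, limma, adjusted p = 0.0155). All CMS arrays were above 0 and all control arrays below 0 in both areas. The hippocampus gave -1.08, -1.14 and -1.38 in CMS arrays, against -1.19, -1.04 and -0.66 in control arrays, and the cerebral cortex 1.10, 0.77 and 0.82 in CMS arrays, against 1.05, 1.22 and 0.27 in control arrays. Both pairs of groups overlapped. The amygdala call was lost without control replicate 3 (limma, adjusted p = 0.0565), and the prefrontal call without CMS replicate 2 or control replicate 1 or 2 (limma, adjusted p up to 0.0568). The other two sensors, Ddx58 (RIG-I) and Dhx58 (LGP2), hardly varied.

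The OAS proteins are activated by double-stranded RNA and switch on the RNA-degrading enzyme RNase L, and only the related gene Oasl2 was called higher. Oasl2 had values of 0.57, 1.04 and 0.99 in CMS amygdala, against -0.011, 0.0052 and 0.15 in control amygdala (0.82 ± 0.14, limma, adjusted p = 0.0206). In the cerebral cortex it had -0.042, -0.030 and -0.0057 in CMS arrays, against -0.40, -0.54 and -0.81 in control arrays (0.56 ± 0.10, limma, adjusted p = 0.0318). In the amygdala the CMS arrays stood out above an even control group, and in the cerebral cortex the control arrays stood out below an even CMS group. Its groups overlapped in hippocampus and prefrontal cortex. The amygdala call remained only without CMS replicate 1 and the cortical call only without control replicate 1 or 3 (limma, adjusted p up to 0.0808 and 0.106). Oas1a, Oas2 and Oas3 were called higher in no area, and Oas2 and Oas3 hardly varied.

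Among the other antiviral effectors, Samd9l was called higher in amygdala and cerebral cortex. Samd9l encodes a cytoplasmic protein that restricts poxviruses and cell growth. Its values were 0.53, 0.62 and 0.73 in CMS amygdala, against 0.10, -0.34 and -0.10 in control amygdala (0.74 ± 0.13, limma, adjusted p = 0.0197). The cerebral cortex gave 0.21, 0.44 and 0.37 in CMS arrays, against -0.34, -0.34 and -0.58 in control arrays (0.76 ± 0.091, limma, adjusted p = 0.00973). Both areas separated all CMS from all control arrays. The cortical call held whichever array was left out, and the amygdala call was lost without CMS replicate 2 or 3 or control replicate 3 (limma, adjusted p up to 0.0733). In the hippocampus the values ran the other way, at -2.04, -1.40 and -1.34 in CMS arrays, against -1.21, -1.18 and -1.30 in control arrays, and did not pass (-0.36 ± 0.20, limma, adjusted p = 0.21). CMS replicate 1 was the lowest of all 24 arrays for this gene.

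Adar, the enzyme that edits adenosine to inosine in double-stranded RNA, was called higher in hippocampus and cerebral cortex. The hippocampus gave -0.095, -0.021 and -0.078 in CMS arrays, against -0.55, -0.64 and -0.44 in control arrays (0.48 ± 0.055, limma, adjusted p = 0.011), and this call held whichever array was left out. The cerebral cortex gave 0.54, 0.50 and 0.45 in CMS arrays, against 0.27, 0.23 and 0.16 in control arrays (0.28 ± 0.042, limma, adjusted p = 0.0189). Neither area had overlapping arrays. The cortical call was lost without CMS replicate 1 or 2 or control replicate 2 (limma, adjusted p up to 0.0739), and its 3 probe sets disagreed: 2 were called higher and 1 lower, with differences between -0.23 and 0.64. In the prefrontal cortex Adar ran the other way, at -0.17, -0.24 and -0.22 in CMS arrays, against -0.071, -0.039 and 0.050 in control arrays, without overlap (-0.19 ± 0.039, limma, adjusted p = 0.0501), and 1 of its probe sets was called lower there. Rtp4, known to bind foreign RNA and restrict viruses, read -0.16, -0.091 and -0.059 in CMS hippocampus, against -0.51, -0.48 and -0.35 in control hippocampus (0.34 ± 0.051, limma, adjusted p = 0.0163). This rested on 1 of its 2 probe sets, with a difference of 0.78, while the other was called lower by a difference of -0.088. Without CMS replicate 2 or 3 or control replicate 1 or 2 the call for Rtp4 was lost (limma, adjusted p up to 0.0598).

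**Figure D3:**
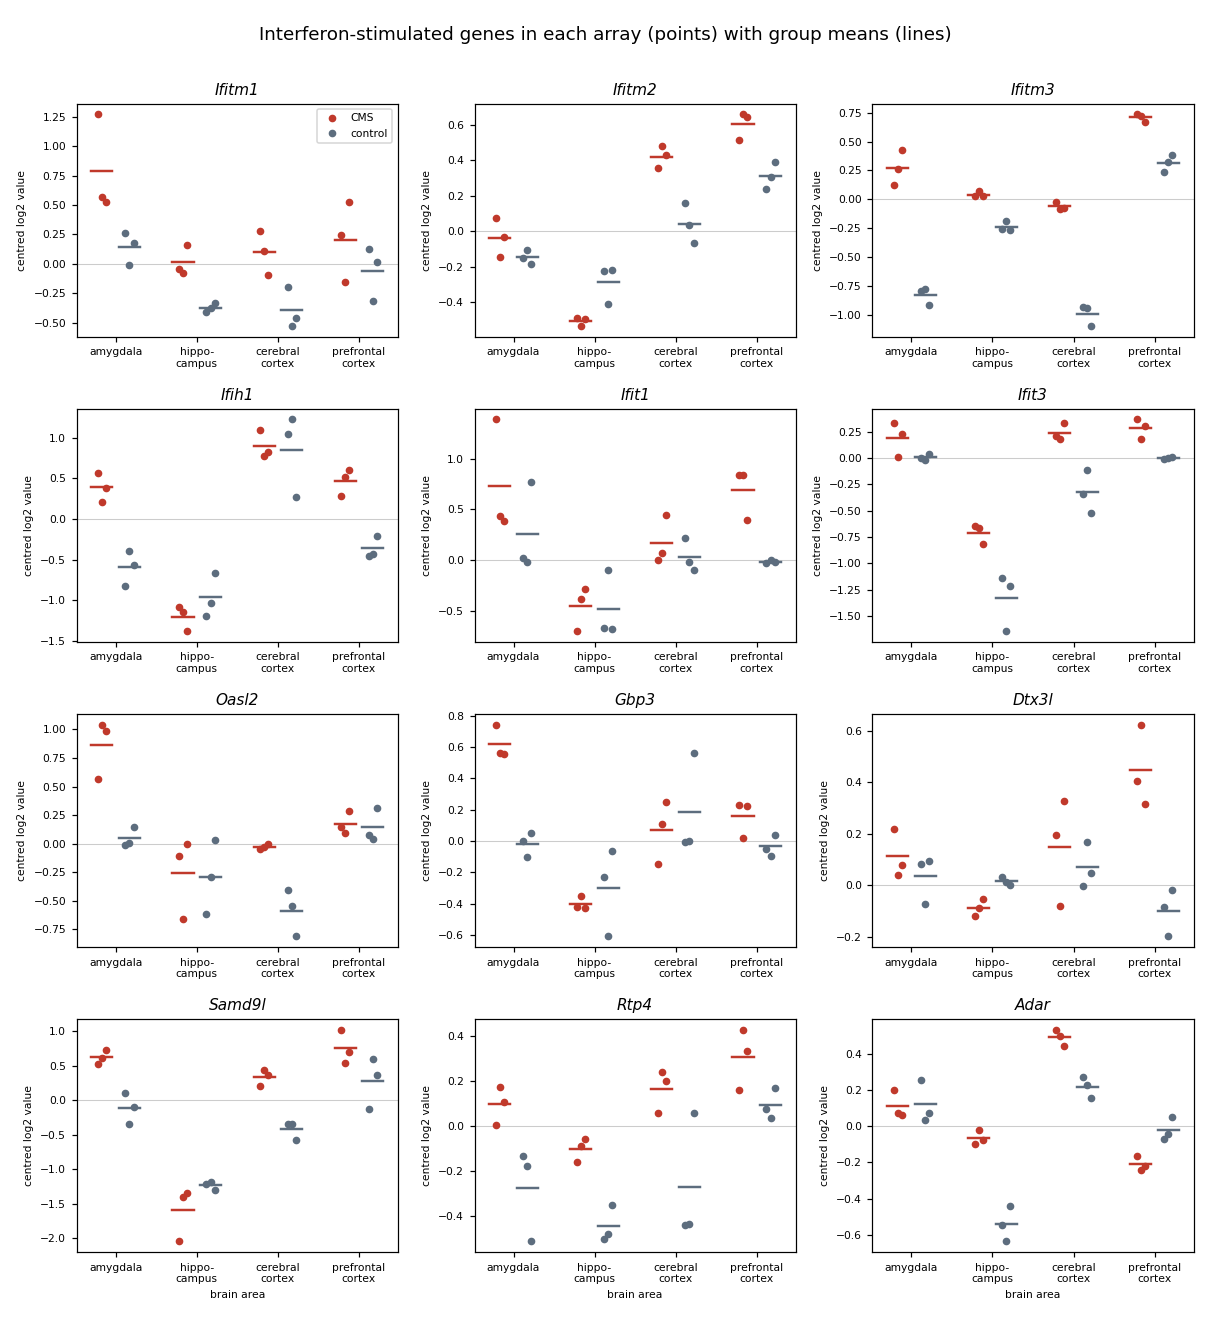
Centred log2 value of 12 members in every array (points) with group means (lines), CMS in red left of control in grey, by brain area. The 3 CMS arrays of Ifitm3 lie above the 3 control arrays in each area, whereas those of Ifih1 do so in amygdala and prefrontal cortex.

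Rsad2 encodes viperin, an enzyme that makes a chain terminator of viral RNA synthesis, and its 3 probe sets gave different readings. By the mean of the probe sets, Rsad2 was called higher in the cerebral cortex, with 0.33, 0.38 and 0.35 in CMS arrays, against -0.028, 0.030 and 0.014 in control arrays (0.35 ± 0.028, limma, adjusted p = 0.00383). This call held whichever array was left out, and a smaller one in the hippocampus (0.072 ± 0.018, limma, adjusted p = 0.0407) was lost whichever of the 6 arrays was left out. The probe set that varied most was picked out after its values were seen. It read 0.80, 1.21 and 1.06 in CMS cerebral cortex, against -0.030, 0.11 and -0.0062 in control cerebral cortex, and 0.57, 0.97 and 0.79 in CMS prefrontal cortex, against -0.025, -0.037 and -0.058 in control prefrontal cortex. It read 0.52, 0.37 and 0.62 in CMS amygdala, against -0.023, 0.0062 and 0.024 in control amygdala, and -0.10, -0.028 and -0.021 in CMS hippocampus, against -0.25, -0.41 and -0.37 in control hippocampus. No area showed overlap in this probe set. Fitted across all probe sets, its differences were 1.00, 0.82, 0.50 and 0.29 in these 4 areas (limma, adjusted p = 0.00935, 0.0216, 0.0137 and 0.0195). The remaining 2 probe sets were called higher in no area and lower in the hippocampus, by differences of -0.040 and -0.037. Counted over probe sets, 11 of the 67 of all members were called higher in the cerebral cortex (16.4%, against 5.49% of all probe sets), 10 in the amygdala (14.9%, against 11.4%), 7 in the hippocampus (10.4%, against 5.68%) and 4 in the prefrontal cortex (5.97%, against 2.78%). Lower were 16 probe sets in the hippocampus (23.9%, against 35.0%) and 1 in each other area (1.49%, against 6.88% in amygdala, 3.67% in cerebral cortex and 2.48% in prefrontal cortex).

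**Figure D4:**
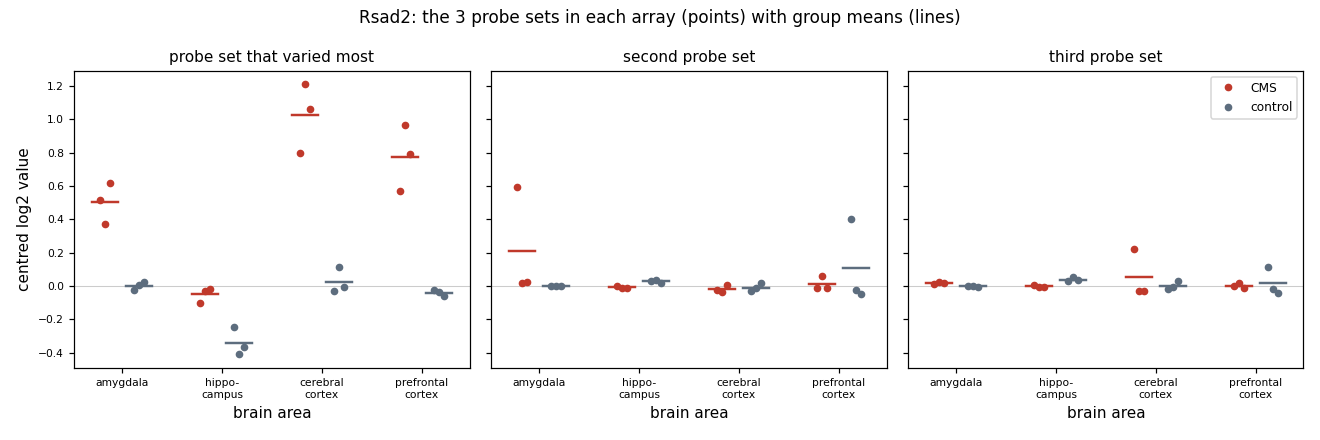
Centred log2 value of the 3 Rsad2 probe sets in every array (points) with group means (lines), CMS in red left of control in grey, by brain area. In the panel on the left the CMS arrays lie above the control arrays in every area, by 1.00 in the cerebral cortex, and in the other panels most arrays lie close to 0.

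Single arrays set the highest values of 2 other effectors, which were named after their values were seen. Isg20, an exonuclease that degrades RNA, read 1.76 in CMS cerebral cortex replicate 1, and the other 5 arrays of that area lay between -0.024 and 0.016. Bst2, the tetherin that holds budding virions at the cell surface, read 1.66 in control hippocampus replicate 3, and the other 5 arrays of that area lay between -0.0057 and 0.26. Neither gene was called in any area. Eif2ak2 encodes the kinase PKR, which stops translation on sensing double-stranded RNA. It was called in no area, and in the amygdala 2 of its probe sets were called in opposite directions, with differences of 0.53 and -0.40. Xaf1 and Ifi35 were likewise called in no area, although 1 of the 3 Ifi35 probe sets was called higher in the amygdala (0.51, limma, adjusted p = 0.0205).

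Enzymes that attach or remove ISG15, ubiquitin or ADP-ribose gave 2 members called higher, in 1 area each. Dtx3l, a ubiquitin ligase, read 0.40, 0.63 and 0.32 in CMS prefrontal cortex, against -0.084, -0.20 and -0.017 in control prefrontal cortex (0.55 ± 0.093, limma, adjusted p = 0.0306). In the hippocampus it was lower, at -0.12, -0.090 and -0.053 in CMS arrays, against 0.035, 0.013 and 0.0027 in control arrays (-0.10 ± 0.022, limma, adjusted p = 0.0304). The arrays lay apart in both areas, in opposite directions. Neither of its 2 probe sets passed by itself in the prefrontal cortex, with differences of 0.94 and 0.16 (limma, adjusted p = 0.094 and 0.396). The prefrontal call of their mean remained only without CMS replicate 2 or 3 and the hippocampal one only without control replicate 3 (limma, adjusted p up to 0.0833 and 0.0967). Trim30a, a TRIM protein that dampens inflammatory signalling, had 0.28, 0.44 and 0.29 in CMS cerebral cortex, against -0.0059, -0.037 and 0.061 in control cerebral cortex (0.33 ± 0.055, limma, adjusted p = 0.0231), a call that remained only without CMS replicate 2 or control replicate 3 (limma, adjusted p up to 0.0764). Only 1 of the 2 Trim30a probe sets passed by itself in the cerebral cortex, with differences of 0.51 and 0.16 (limma, adjusted p = 0.0289 and 0.313). Parp9, which forms a complex with Dtx3l, had the second largest difference of any member in the cerebral cortex. It read 0.44, 0.0018 and 0.31 in CMS arrays, against -0.014, -1.03 and -0.68 in control arrays, and this difference of 0.83 ± 0.28 did not pass (limma, adjusted p = 0.146). Usp18, the protease that removes ISG15, had its largest difference, 0.48, in the cerebral cortex and its smallest, 0.12, in the amygdala, and passed in no area. Trim25 and Parp14 were called in no area by the mean of their probe sets. Of the 3 Trim25 probe sets, 1 was called higher in the cerebral cortex (0.35, limma, adjusted p = 0.0423).

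Interferon-inducible GTPases attack the membranes around intracellular parasites, and of 5 measured only Gbp3 was called. Gbp3, a guanylate-binding protein, read 0.74, 0.56 and 0.55 in CMS amygdala, against -0.0018, -0.10 and 0.048 in control amygdala (0.64 ± 0.069, limma, adjusted p = 0.00664). All CMS arrays were above all control arrays, and the call held whichever array was left out. In the hippocampus, cerebral cortex and prefrontal cortex its groups overlapped, with differences of -0.10, -0.11 and 0.19. Gbp2, Igtp, Irgm1 and Iigp1 passed in no area, and their largest difference was 0.38 (Iigp1, cerebral cortex). Cxcl9 and Cxcl10, chemokines that attract T cells, were called higher in no area, and neither was Psme1, a subunit of a proteasome activator.

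The transcription factors that drive the programme were called higher in no area. Stat2 and Irf9, partners in the factor that carries the interferon signal to the nucleus, differed by at most 0.44 and 0.13, and Irf1, which responds to interferon gamma, was called in no area. Stat2 had its largest difference in the cerebral cortex, with -0.018, -0.18 and 0.37 in CMS arrays, against -0.43, -0.34 and -0.38 in control arrays (0.44 ± 0.14, limma, adjusted p = 0.134), and these did not overlap. Of the 2 Stat2 probe sets, 1 was called higher in that area (0.66, limma, adjusted p = 0.0419). Irf7, which induces interferon genes, and Sp100, a nuclear body protein, were called lower in the hippocampus and belong to the members that hardly varied.

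Members that hardly varied, with a range over the 24 arrays under 0.5, were 10: Rsad2, Mx1, Dhx58, Sp100, Oas2, Ddx58, Irf7, Cxcl9, Mx2 and Oas3. For Rsad2 this holds for the mean of its probe sets only, since 1 of the 3, called higher in all 4 areas, ranged over 1.62. No other of these members had a probe set with a range of 1 or more. They made up 23.3% of members, against 39.0% of all genes, and the median range was 1.03 for members and 0.634 for all genes. Oas3 had the smallest range, 0.075, and all its 24 arrays lay within 0.1 of the centre, as did those of Mx2, Cxcl9 and Irf7. Mx1 and Mx2 encode dynamin-like GTPases that block virus replication. Of the 8 members called lower in the hippocampus, 6 were among these 10 (Mx2, Oas2, Irf7, Dhx58, Cxcl9 and Sp100), with differences between -0.080 and -0.045, beside -0.048 for the median gene of that area. Once the differences of each area were centred on the median gene, a check chosen after the data were seen, 5 members were called higher and none lower in the hippocampus (limma), and 8.95% of all genes were called in either direction. At the other end, Samd9l ranged over 3.07, Ifih1 over 2.60 and Ifit1 over 2.09.

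**Figure D5:**
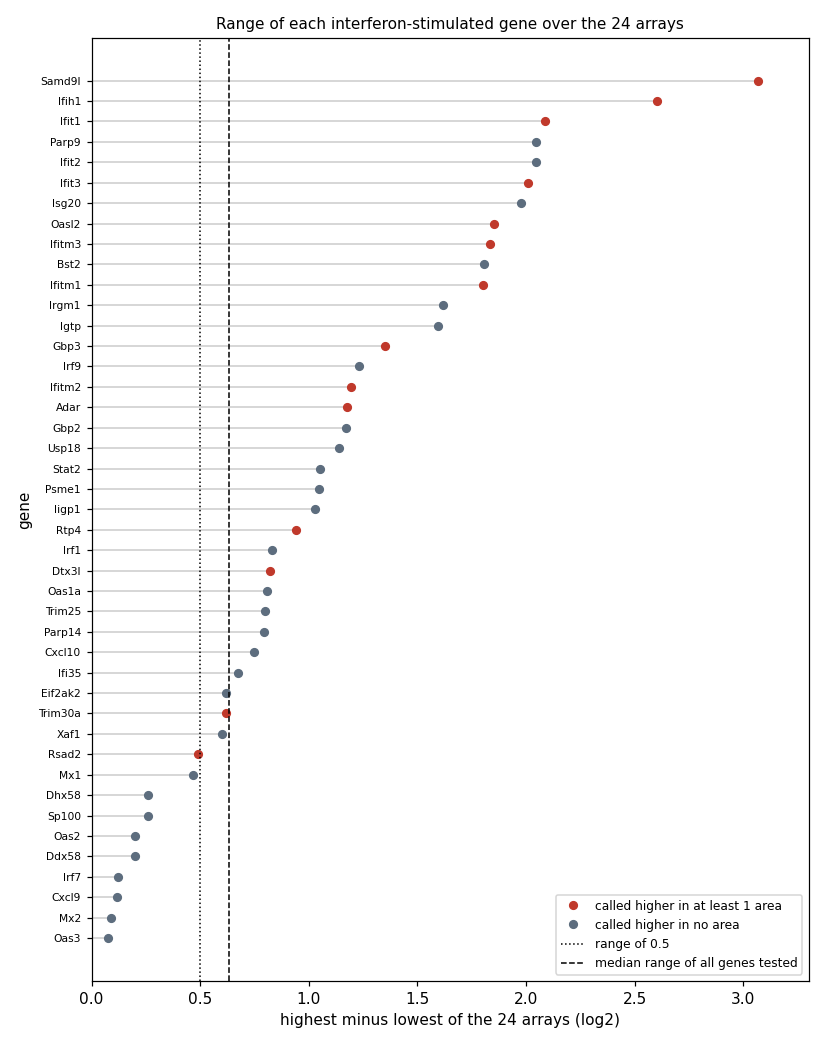
Highest minus lowest value over the 24 arrays (log2) of each of the 43 members, in red where called higher in at least 1 area and in grey elsewhere, with lines at 0.5 and at the median range of all genes (0.634). Of the 10 members left of the dotted line, Rsad2 is the only one called higher.

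The effect of CMS differed between areas for 15 of 43 members (34.9%, against 52.3% of all genes; limma F test, adjusted p under 0.05). A difference of over 1 between 2 areas was found for Ifih1 and Samd9l (4.65% of members, against 2.47% of genes). Ifih1 ran between 0.98 in the amygdala and -0.24 in the hippocampus, a spread of 1.22 (limma F test, adjusted p = 0.00385). Samd9l ran between 0.76 in the cerebral cortex and -0.36 in the hippocampus, a spread of 1.12 (limma F test, adjusted p = 0.0052). Among control mice alone, with no test, 16 of 43 members were lowest in the hippocampus (37.2%, against 25.8% of genes). Control hippocampus averaged -1.33 ± 0.27 for Ifit3, -1.26 ± 0.18 for Ifit2 and -1.23 ± 0.063 for Samd9l (SD, n = 3 each). In control cerebral cortex these genes averaged -0.33 ± 0.20, 0.34 ± 0.39 and -0.42 ± 0.14, and in control prefrontal cortex -0.0027 ± 0.012, 0.088 ± 0.075 and 0.28 ± 0.37. Control amygdala gave 0.0050 ± 0.028 for Ifit3, -0.13 ± 0.12 for Ifit2 and -0.11 ± 0.22 for Samd9l. For Ifit3, amygdala and prefrontal cortex did not differ beyond their spread. In control hippocampus the 14 hybridization control probe sets averaged -1.16. Their means were 0.014 in control amygdala, -0.19 in control prefrontal cortex and 0.16 in control cerebral cortex. Area and array handling can therefore not be told apart, in these levels or in the effects compared between areas.

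Genes of the pathway outside the list were described by counts, and those named with a difference under 2-fold were picked after their values were seen. Upstream of the members, the interferon genes themselves were called higher only for Ifna9 in the amygdala, with a difference of 0.058, among 9 measured ligand genes. In the hippocampus 6 of the 9 were called lower, with a list median of -0.056 beside -0.048 for all genes. Of the 6 receptor chains, 1 was called higher and 1 lower in the amygdala, and 2 were called lower in the hippocampus. Among these, Ifngr2, a chain of the interferon gamma receptor, was lower in amygdala (-0.56 ± 0.086) and hippocampus (-0.35 ± 0.041). Il10rb, a chain of the interferon lambda receptor, was higher in the amygdala (0.34 ± 0.065). Of 6 JAK-STAT relay genes, Tyk2 and Irf2 were called higher in the amygdala, Jak1 in the hippocampus (with Irf2 lower) and Stat3 in the cerebral cortex. Among 16 nucleic acid sensing genes, Mavs, the adaptor that Ifih1 signals through, was lower in the amygdala (-0.50 ± 0.058, limma, adjusted p = 0.00757). That list gave 1 higher and 1 lower in the amygdala, 4 lower in the hippocampus and 1 higher in the prefrontal cortex. Irf2bp2, a corepressor of Irf2 and 1 of 10 negative regulators, was lower over 2-fold in the amygdala (-1.05 ± 0.13, limma, adjusted p = 0.00969). The negative regulators gave 2 higher and 1 lower in the amygdala, 2 lower in the hippocampus and 1 lower in the prefrontal cortex. A further list of interferon-induced genes that are not members gave 5 higher and none lower of 46 in the amygdala, 5 higher and 11 lower in the hippocampus, 2 higher and 1 lower in the cerebral cortex, and 4 higher and none lower in the prefrontal cortex. Over all genes the shares called higher were 10.5% in amygdala, 4.66% in hippocampus, 5.95% in cerebral cortex and 4.45% in prefrontal cortex. The shares called lower were 8.84%, 24.9%, 3.99% and 3.92% in the same order. For this list of 46, the higher amygdala count and the lower hippocampal count were thus near the background, and the cerebral cortex counts were not above it. The higher counts in hippocampus (5 of 46) and prefrontal cortex (4 of 46) lay above the background, with no test. The excess of members called higher in the cerebral cortex (18.6%, against 5.95%) was not seen in this list. B2m, the constant chain of MHC class I, was called higher in amygdala, cerebral cortex and prefrontal cortex, and the secreted glycoprotein gene Lgals3bp was over 2-fold higher in the hippocampus (1.09 ± 0.067, limma, adjusted p = 0.0051).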

How the data were processed

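Total RNA of 4 brain areas was hybridized to whole-genome mouse arrays, 3 per group. The values used are the deposited log2 intensities, which the authors made from the scanner files with GeneSpring GX by GCRMA (background correction, normalization and summary of a probe set) and then set relative to a baseline; they are centred on each probe set's median, so absolute levels and detection are not known, and a small change of a dim gene can be compressed. The version is not given in the sources used here, and scanner files were not used here. The number of arrays limits the precision, and no exact permutation test of 3 against 3 arrays can go below 0.1.

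Of 45101 probe sets, 64 controls were left out, 34945 carried 1 gene symbol, 932 several and 9160 none in the platform annotation. Probe sets of 1 symbol were averaged per gene, and all 18193 genes were fitted in each area with limma 3.58.1 (R 4.3.3, lmFit and eBayes, two-sided), with Benjamini-Hochberg adjustment over all of them. A gene was called at an adjusted p under 0.05. Differences between areas were tested by an F test in 1 fit of the 24 arrays, taken as independent although areas may share mice. On simulated data 75.0% (hippocampus), 75.5% (amygdala), 77.0% (cerebral cortex) and 80.0% (prefrontal cortex) of 200 changed genes were recovered, with 6 to 16 false calls. These shares pool several sizes of change. The simulated noise was independent between genes and held no shift of whole arrays. The simulation thus checks the code and does not measure the rate of false calls in the real arrays.

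Members and lists were chosen with earlier results of these data known. Values per array are given for members called over 2-fold, for the 5 largest differences among called members of each area and for members that differed by over 1 (log2) between areas. Other genes given with values (among them Ifit2, Stat2, Parp9, Usp18, Isg20, Bst2 and genes of the pathway lists changed by under 2-fold) were chosen after their values were seen. Alternatives were a joint fit, the methods' t-test, trend and robust options, array weights (statmod 1.5.0), a replicate block, a filter on the range, quantile normalization, median centring, other probe set rules and leaving out each array. Centring the differences of each area on its median gene was added after seeing the data. Figures were drawn with matplotlib 3.10.9.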

Additional observations from a re-analysis of the deposited data

Results flagged for a closer look

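The effect of CMS was not the same in the 4 areas for 15 members (limma F test of the difference between areas, adjusted p under 0.05 over all genes). In each case the value is the largest difference on the log2 scale between the effects of 2 areas. Hybridization control probe sets differed between areas too, so area and array handling cannot be told apart in these values. Among effector and membrane genes it was 0.82 for Ifitm3 (limma, adjusted p = 1.47e-06), 0.67 for Adar (2.43e-05) and 0.60 for Ifitm2 (0.000264). It was 1.22 for the RNA sensor Ifih1 (limma, adjusted p = 0.00385), 1.12 for Samd9l (0.0052), 0.79 for Oasl2 (0.0213), 0.75 for Gbp3 (0.0136) and 0.65 for Dtx3l (0.00272).

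The other 7 members hardly varied over the arrays by the mean of their probe sets. The value was 0.28 for Rsad2 (limma, adjusted p = 0.0368), a mean over 3 probe sets of which 1 differed from control by between 0.29 and 1.00 in the 4 areas. It was 0.20 for Sp100 (limma, adjusted p = 0.00258), 0.14 for Dhx58 (0.031), 0.12 for Oas2 (0.0439), 0.11 for Cxcl9 (0.00321), 0.074 for Mx2 (0.00798) and 0.059 for Oas3 (0.0206). With the differences of each area centred on its median gene, the adjusted p by limma was 0.0741 for Rsad2, 0.0629 for Sp100, 0.393 for Dhx58, 0.695 for Oas2, 0.510 for Cxcl9, 0.995 for Mx2 and 0.900 for Oas3. The 8 members of the paragraph above passed after that centring, with adjusted p by limma up to 0.0359.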

How the results depend on the processing

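The calls of Ifitm3 in amygdala and cerebral cortex, Gbp3 in the amygdala and Samd9l and Rsad2 in the cerebral cortex passed under every alternative that measured them. Gbp3 had no probe set left in the run without probe sets that can match several transcripts. Rsad2 was removed by the filter on the range. Those 2 runs therefore could not test these 2 calls. Of 547 values called by limma and recomputed under an alternative, 339 stayed called, 204 were lost and 4 turned sign, and of 403 values not called 13 passed. The cause of these changes was not tested.

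Counts in this section are given without the share of all genes called in the same run. A count that rose or fell is therefore not a result about the members. In the amygdala the count of 5 members became 11 in a joint fit of 24 arrays, 9 with array weights and 9 with the most variable probe set. It was 3 without probe sets that can match several transcripts, where Oasl2 and Gbp3 were no longer measured. As single arrays were left out the count ran between 2 and 8. The count over 2-fold ran between 1 and 2, and the median of 0.11 became 0.087 with median centring (leave-one-out 0.099 to 0.13). In the hippocampus the count of 14 became 8 in a joint fit, 5 without genes of a small range, 3 after quantile normalization, 5 after median centring, 8 with the most variable probe set and 5 after centring on the median gene, and it ran between 2 and 11 as arrays were left out. Its median of -0.027 turned to 0.013 after quantile normalization, 0.014 after median centring and 0.021 after centring on the median gene, and ran between -0.041 and 0.017 as arrays were left out, the highest without control replicate 3. Irf7 turned to 0.00030 there after quantile normalization, and Mx2, Oas2 and Dhx58 to 0.0022, 0.0025 and 0.0012 after centring on the median gene.

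In the cerebral cortex the count of 8 became 3 by the methods' t-test and ran between 3 and 8 as arrays were left out. It was 5 without probe sets that can match several transcripts, where Oasl2 and Trim30a were no longer measured and Adar lost its call. The count over 2-fold ran between 0 and 1. Its median of 0.10 became 0.12 after quantile normalization, 0.13 after median centring, 0.14 with the most variable probe set and 0.14 after centring on the median gene (leave-one-out 0.096 to 0.16). In the prefrontal cortex the count of 6 became 1 by the methods' t-test, 3 with trend and robust options, 10 with array weights and 3 after median centring, and ran between 1 and 4 as arrays were left out. The count over 2-fold was 1 after quantile normalization. Its median of 0.089 became 0.17 after quantile normalization, 0.071 after median centring, 0.14 with the most variable probe set, 0.13 without probe sets that can match several transcripts and 0.071 after centring on the median gene (leave-one-out 0.083 to 0.13). The 15 members that differed between areas became 9 after median centring and 9 after centring on the median gene (leave-one-out 13 to 17), and the 10 that hardly varied became 21 at a range under 1.

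Replicate numbers did not pair the samples: deviations of CMS and control arrays with the same number correlated between -0.065 and 0.027. With a replicate block 4 members were called in the cerebral cortex, 2 in the amygdala, 1 in prefrontal cortex and 0 in hippocampus. Since areas may share mice, the mouse was also fitted as a random block (consensus correlation -0.0916), and 14 members then differed between areas. Signal over background is not known for these centred values, so whether a member that hardly varied was detected is not known. Rsad2 is an exception among these 10, with 1 probe set that ranged over 1.62.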
